A study of Mus musculus with 16 samples.

Results

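The genes described here are 10 homeostatic chemokine and receptor genes, the signals that guide lymphocytes and dendritic cells into lymphoid tissue. They were chosen by name, namely Ccl19, Ccl21a, Ccl21b, Cxcl13 and Cxcl12 as ligands and Ccr7, Cxcr5, Cxcr4, Ccr6 and Ccr9 as receptors, out of 54752 gene IDs in the table of raw counts. All 10 were found in the table and all 10 passed the filter on low counts that left 19736 genes. The tissue was inguinal white fat (iWAT), a subcutaneous depot at the groin, from 16 C57BL/6 mice labelled female and 90 days old. WT was without either mutation. Lepob/+ animals had the ob allele of the leptin gene on 1 of their 2 copies, SOD1-G93A mice carried a human transgene of mutant superoxide dismutase in many copies, and SOD1-G93A Lepob/+ mice, from a cross of Lepob/+ females with SOD1-G93A males, carried both. There were 4 libraries of each genotype, the replicates are taken as separate mice, and the transgene acts in the whole animal rather than in fat alone. The comparisons ask how each mutation, and the ob allele added to the transgene, changed the adipose transcriptome.

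Total counts ran from 36.8 to 61.9 M per library. Levels are in CPM, the counts of a gene scaled to the TMM-adjusted total of its library, and differences are log2 fold changes with approximate standard errors (SE). Each SE is the absolute log2 fold change divided by the square root of edgeR's F statistic, so it is derived from the test. Mature adipocyte markers were high everywhere (6 genes, summed level 9488 to 21200 CPM), as the tissue label requires. A few libraries stood apart. Lepob/+ replicate 4 held 1340516 counts and WT replicate 3 held 50256 counts of the skeletal muscle actin gene Acta1, beside 122 to 3987 in the other 14. The library labelled SOD1-G93A Lepob/+ replicate 3 had 0 counts of Xist and 1756 counts of Y chromosome genes although the mouse is labelled female. Results are given with all of them. Values without Lepob/+ replicate 4 and that library together, and without WT replicate 3, stand beside the comparisons that use them.

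Chemokines of this family are made without inflammation and set up the layout of lymph nodes. CCL19 and CCL21 come from fibroblastic reticular cells, and CCL21 also from high endothelial venules. Both draw T cells and mature dendritic cells through the receptor CCR7, while CXCL13 from follicular stroma draws B cells through CXCR5. CXCL12 is made by mesenchymal stroma in many tissues, fat included, and binds CXCR4. CCR6 is carried by B cells and some T cells, and CCR9 guides T cells of the gut and thymus and is also carried by plasmacytoid dendritic cells. The inguinal lymph node lies inside the inguinal fat pad.

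Mouse CCL21 comes from several near-identical genes on chromosome 4, so the sequence of these genes bears on how their counts can be read. Ccl21a (ENSMUSG00000094686) lies at chr4:42772860-42773993 on the minus strand of GRCm38 and Ccl21b (ENSMUSG00000095675) at chr4:42255767-42256432 on the plus strand. Their coding sequences are 402 bases each in GENCODE M21 and differ at 2 positions, counted from 1 at the first base of the start codon, as T84A and C194T (the Ccl21a base first). The predicted genes Gm13304, Gm21541 and Gm10591 carry the Ccl21b coding sequence without a difference. The coding bases from 74 to 204 are shown because they hold both positions, with the bases that differ in capitals. They span chr4:42773533-42773757 for Ccl21a and chr4:42255928-42256152 for Ccl21b, introns left out.
Ccl21a: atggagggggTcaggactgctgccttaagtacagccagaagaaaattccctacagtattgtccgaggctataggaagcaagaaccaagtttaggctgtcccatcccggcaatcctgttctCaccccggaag
Ccl21b: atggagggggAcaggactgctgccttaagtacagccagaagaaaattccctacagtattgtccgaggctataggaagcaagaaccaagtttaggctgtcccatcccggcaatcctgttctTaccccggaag

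Of the 771 windows of 100 bases in the Ccl21a transcript, 50.3% occurred unchanged in a transcript of another gene, in each case one of the Ccl21 genes. The Ccl21b transcript, annotated as its coding part alone, had 303 such windows and 100% of them were shared. Ccl19 (ENSMUSG00000071005, chr4:42754525-42756577, minus strand) shared 41.8% of its windows with Ccl19-ps1, Ccl19-ps3, Gm12407 and Gm2564. Cxcl13, Cxcl12, Ccr7, Cxcr4, Ccr6 and Ccr9 shared 0%, and Cxcr5 shared 0.4% with the antisense gene Bcl9l. Only uniquely mapped reads were counted, per the paper's methods. Ccl21b, Gm13304 and Gm10591, with 0 windows of their own, still held up to 725, 3433 and 2420 counts. How reads matching several of these genes were assigned was not tested. The split of counts between Ccl21a and Ccl21b is therefore uncertain, and they may not be independent members in the counts below.

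RefSeq promoters (GRCm38.p6, 250 bases before to 50 after the start site) were at hand for 8 of the 10 genes, 9 promoters in all, with none for Ccr7 and Cxcr5. Transcription of these ligands is known to follow lymphotoxin signalling through the RelB/p52 form of NF-kappaB. The letters of the kappaB motif preferred by that form were found, on both strands, in 0.365% of 32851 promoters and in 1 of the 9 here, that of Cxcl13, at 114 to 105 bases before the start. A TATA box (TATAAA) was present in 13.6% of all promoters and in those of Cxcl13 and Cxcr4. Of the other motifs searched, the classical kappaB motif (8.46% of all promoters) matched in Ccr6, the ETS motif AGGAAGT (9.35%) in Ccr6, the interferon-response letters TTTCNNTTTC (3.44%) in Ccl19, and the E-box CACGTG (7.15%) in none. The 250 bases before the start of Cxcl13 and of Ccl21a are shown to set the promoter with these letters beside one without them, with the RelB/p52-type kappaB motif and the TATA box in capitals. The Cxcl13 stretch is chr5:95956689-95956938 on the plus strand and the Ccl21a stretch is chr4:42773992-42774241 on the minus strand.
Cxcl13: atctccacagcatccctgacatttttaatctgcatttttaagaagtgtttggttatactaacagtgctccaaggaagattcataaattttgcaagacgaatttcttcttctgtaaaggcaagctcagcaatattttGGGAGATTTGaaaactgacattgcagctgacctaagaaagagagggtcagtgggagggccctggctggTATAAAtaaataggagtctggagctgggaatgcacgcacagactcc
Ccl21a: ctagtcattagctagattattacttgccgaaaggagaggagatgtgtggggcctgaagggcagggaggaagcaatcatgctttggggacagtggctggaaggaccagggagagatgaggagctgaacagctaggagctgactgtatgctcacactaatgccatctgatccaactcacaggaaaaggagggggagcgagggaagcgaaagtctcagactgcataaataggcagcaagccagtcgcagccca
A match is a description of these letters and not a site shown to be bound. The motifs were chosen after the promoters had been seen, so the shares over all promoters test nothing here. The promoters of Gm13304 and Gm10591 differed from that of Ccl21a at 3 of 299 aligned bases each. The RefSeq window under the name Ccl21b, which begins at chr4:42172870 and not beside the GENCODE gene of that name, differed at 199 of 295 bases.

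Ccl19 and the Ccl21 genes, the T cell zone ligands, were either abundant or close to 0, and this split ran through WT, Lepob/+ and SOD1-G93A, whereas all SOD1-G93A Lepob/+ libraries were low. Ccl21a was at 231.8, 205.1, 0.5424 and 0.05289 CPM in WT replicates 1 to 4. In Lepob/+ it was at 0.6235, 0.1711, 307 and 3.097 CPM, in SOD1-G93A at 233.3, 368, 0.1036 and 275.3 CPM, and in SOD1-G93A Lepob/+ at 0.5977, 0.1499, 0.5895 and 1.854 CPM. Thus 6 libraries were high, WT replicates 1 and 2, Lepob/+ replicate 3 and SOD1-G93A replicates 1, 2 and 4, and the other 10, all 4 of SOD1-G93A Lepob/+ among them, were low. The lowest of the 6 lay 66.2-fold above the highest of the other 10. Ccl19 was at 48.43, 35.55, 0.6199 and 0.4495 CPM in WT and at 0.5631, 0.5866, 50.01 and 0.4996 CPM in Lepob/+. In SOD1-G93A it was at 39.14, 56.99, 0.1899 and 44.53 CPM, and in SOD1-G93A Lepob/+ at 0.5092, 0.5746, 0.6122 and 0.4494 CPM. The same 6 libraries were high, with a gap of 57.4-fold to the rest. Ccl21b followed in the same 6 libraries at 9.218 to 16.38 CPM and at no more than 0.3997 CPM elsewhere, a gap of 23.1-fold. Mean levels were in the order SOD1-G93A, WT, Lepob/+ and SOD1-G93A Lepob/+ for all 3 ligands, and no neighbours in that order were separated, since the libraries of each pair overlapped.

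**Figure D1:**
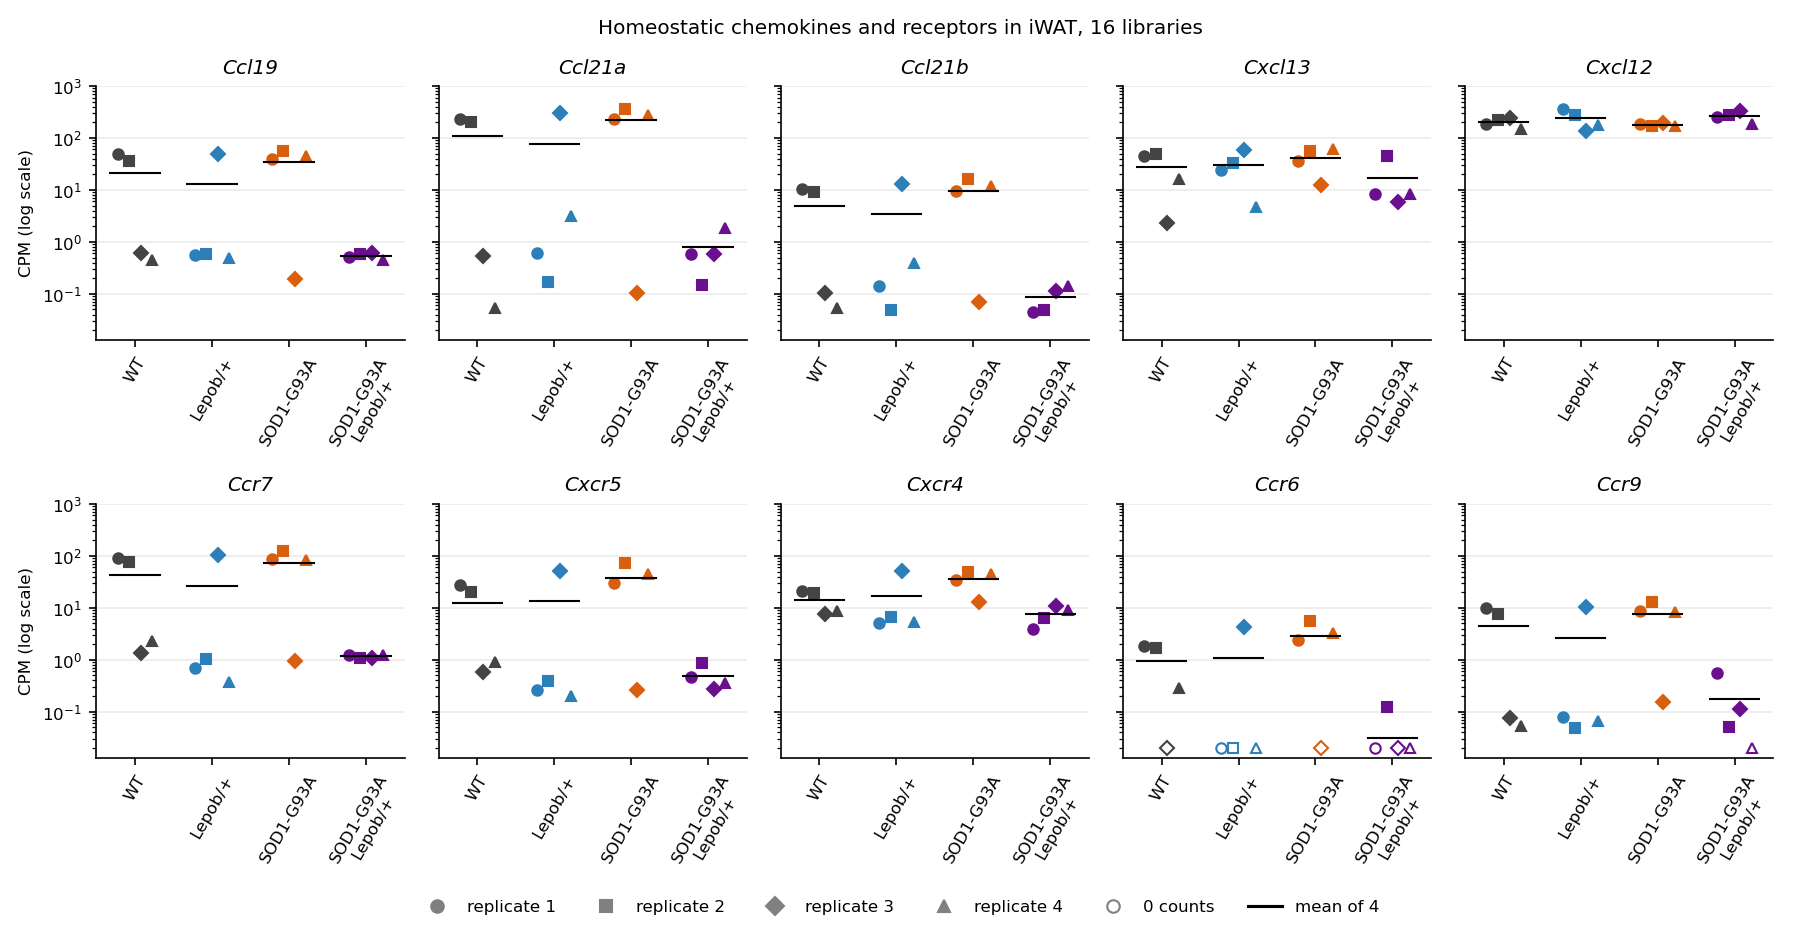
CPM on a log axis for each of the 10 genes in the 4 genotypes, with 1 symbol per library (shape for the replicate number), open symbols at the foot of the axis for 0 counts and a bar for the mean of 4. Ccl19, Ccl21a, Ccl21b, Ccr7, Cxcr5, Ccr6 and Ccr9 separate the same 6 libraries from the other 10, Cxcr4 does so less, Cxcl13 is spread between 2.35 and 61.85 CPM, and Cxcl12 stays between 133.7 and 365.7 CPM in all 16 libraries.

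The share of Ccl21a among the Ccl21 genes was steady in the high libraries and lower in the others, where few counts were left. Of the counts of Ccl21a, Ccl21b, Gm13304, Gm21541 and Gm10591 together, Ccl21a held 69.1% in WT replicate 1 (exact 95% interval 68.4 to 69.8%, 11236 of 16261 counts) and 71.3% in SOD1-G93A replicate 1 (70.5 to 72%), the ends of the range over the 6 high libraries. In the low libraries it ran from 6.67% in WT replicate 4 (0.818 to 22.1%, 2 of 30 counts) to 61.4% in SOD1-G93A Lepob/+ replicate 1 (45.5 to 75.6%, 27 of 44 counts). Ccl21b held 2.92 to 3.13% in the high libraries and 4.5 to 10.8% in the low ones, on 2 to 12 counts. These intervals cover counting error only. Gm13304, Gm21541 and Gm10591 were, outside the 10 members, the genes most like Ccl21a over the 16 libraries (Pearson r of log2 CPM 0.982, 0.982 and 0.981), next to Ccl21b itself (0.986).

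**Figure D2:**
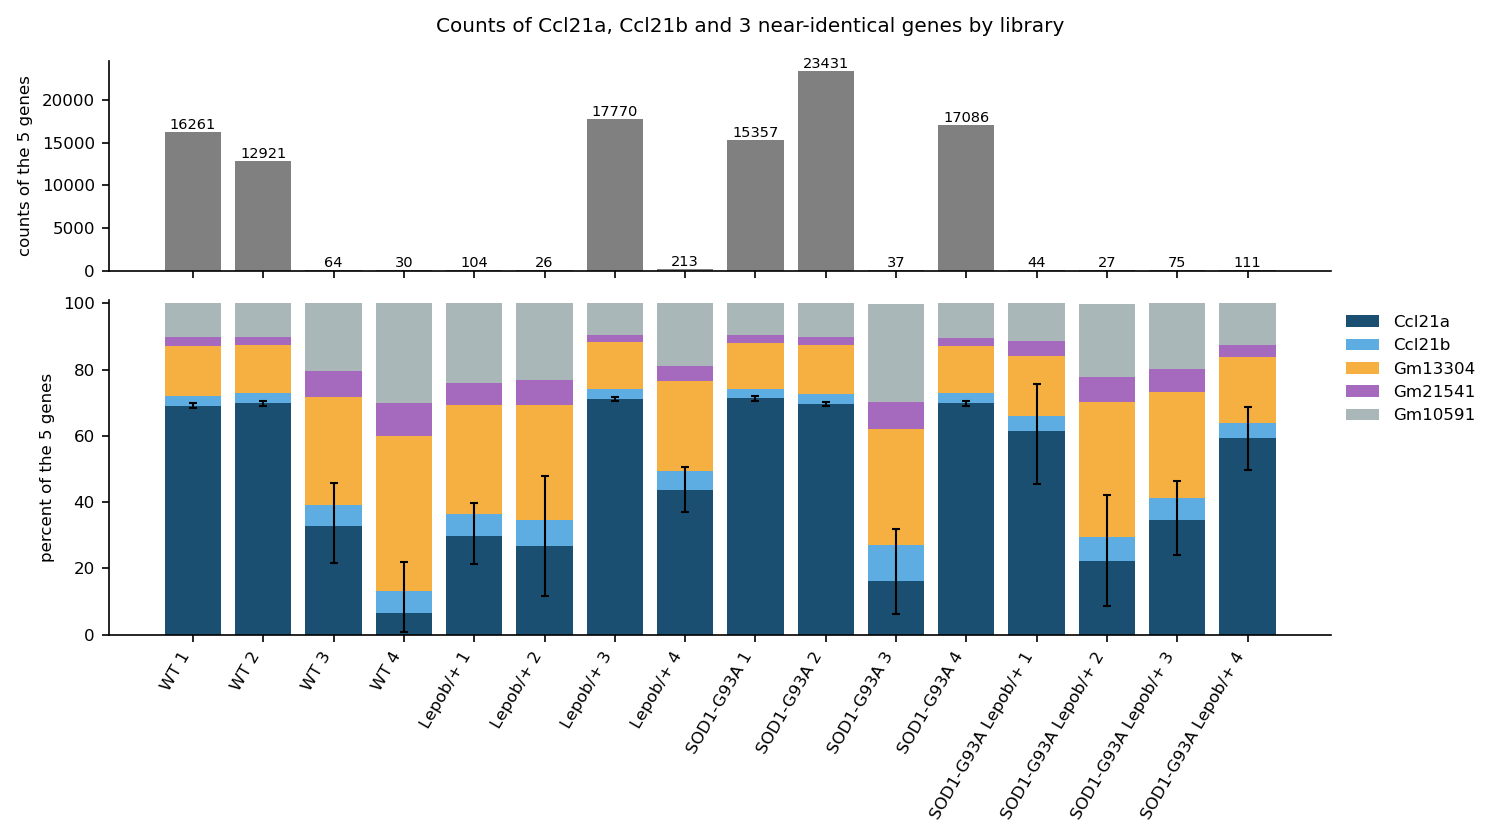
Upper panel, counts of Ccl21a, Ccl21b, Gm13304, Gm21541 and Gm10591 together in each library. Lower panel, the percent of those counts given to each gene, with exact 95% intervals for Ccl21a, which lies at 69.1 to 71.3% in the 6 libraries with 12921 to 23431 counts and at 6.67 to 61.4% in the 10 libraries with 26 to 213 counts.

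Cxcl13 (ENSMUSG00000023078, chr5:95956951-95961068, plus strand), the B cell follicle ligand, was not confined to the 6 libraries. It was at 44.26, 48.35, 2.35 and 15.89 CPM in WT, at 24.24, 32.8, 57.49 and 4.796 CPM in Lepob/+, at 36.5, 55.4, 12.45 and 61.85 CPM in SOD1-G93A and at 8.39, 45.44, 5.85 and 8.51 CPM in SOD1-G93A Lepob/+. The 6 libraries high in Ccl21a were at 36.5 CPM or more. Lepob/+ replicates 1 and 2 and SOD1-G93A Lepob/+ replicate 2, however, held 24.24, 32.8 and 45.44 CPM of Cxcl13 with Ccl21a at 0.6235, 0.1711 and 0.1499 CPM. The receptor of CXCL13 was also near 0 in these 3 libraries, with Cxcr5 at 0.2615, 0.3911 and 0.8494 CPM, and their B cell markers (8 genes, summed) were at 8.769, 7.332 and 15.34 CPM. Over the 16 libraries the Pearson r of log2 CPM between Cxcl13 and the other lymphoid members except Cxcl12 was between 0.588 and 0.779. Each of these correlations spans the gap between the 6 libraries and the rest, so it is given as a description. The genes most like Cxcl13 were Nudt21 (r = 0.954), a subunit of the mRNA cleavage factor, Gm1966 (0.93) and B3gnt2 (0.929), a glycosyltransferase. None of them had fewer than 74 counts in any library.

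Cxcl12 (ENSMUSG00000061353, chr6:117168535-117181367, plus strand), the stromal ligand, was high in every library. It was at 189.6, 225, 237 and 151.1 CPM in WT, at 365.7, 271.7, 133.7 and 181.2 CPM in Lepob/+, at 183.9, 168, 190.4 and 172 CPM in SOD1-G93A and at 252.8, 271.3, 331.6 and 188.6 CPM in SOD1-G93A Lepob/+. The highest library stood 2.74-fold above the lowest, against 344-fold for Ccr7. The genotypes overlapped, and the tightest was SOD1-G93A at 178.6 ± 10.4 CPM (SD, n = 4). With Ccl19, Ccl21a and the other members its correlation over libraries was negative, from -0.621 to -0.263. Genes most like it were Slc26a10 (r = 0.941), Efnb1 (0.928), an ephrin, and Fam181b (0.928). Its ratio to 6 markers of adipose stroma and progenitors (Pdgfra, Dpp4, Pi16, Col15a1, Dcn and Lum) differed between genotypes by -0.23 to 0.14 on the log2 scale, with adjusted p of 0.869 or more in two-sided exact permutation tests. These tests were adjusted over 16 tests of 4 ratios, and 4 libraries against 4 allow no p below 0.0286.

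Ccr7 (ENSMUSG00000037944, chr11:99144196-99155077, minus strand), the receptor of CCL19 and CCL21, was high in the same 6 libraries as its ligands. It was at 91.49, 76.11, 1.343 and 2.301 CPM in WT, at 0.7039, 1.051, 102.7 and 0.3664 CPM in Lepob/+, at 86.93, 126.1, 0.9668 and 82.58 CPM in SOD1-G93A and at 1.262, 1.074, 1.088 and 1.236 CPM in SOD1-G93A Lepob/+. The gap between the 6 libraries and the rest was 33.1-fold. The levels of Ccr7 were set against 8 T cell markers, whose summed level was 548.3 to 1089 CPM in the 6 libraries and 6.734 to 20.63 CPM in the others. On the log2 scale the ratio of Ccr7 to the mean of these markers was 0.24 ± 0.35 in SOD1-G93A Lepob/+ and 0.19 ± 0.10 in SOD1-G93A (SD, n = 4 each), a difference of 0.06 (two-sided exact permutation p = 0.743, adjusted p = 0.914). In Lepob/+ the ratio was spread more widely, at -0.64, 0.74, 0.18 and -1.63 in replicates 1 to 4. Genes most like Ccr7 were Traf1 (r = 0.995), Sla2 (0.994) and H2-Ob (0.993), all of them expressed in lymphocytes.

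Cxcr5 (ENSMUSG00000047880, chr9:44511787-44561877, minus strand), the follicular homing receptor of B cells, was at 27.86, 20.17, 0.594 and 0.9255 CPM in WT and at 0.2615, 0.3911, 52.2 and 0.1998 CPM in Lepob/+. In SOD1-G93A it was at 30.42, 73.92, 0.259 and 44.19 CPM, and in SOD1-G93A Lepob/+ at 0.4649, 0.8494, 0.2721 and 0.3651 CPM. Again the 6 libraries were high, 21.8-fold above the highest of the rest. Its exons share 110 bases with those of Bcl9l on the other strand, and the strand setting of the counting is not given in the sources used here. Genes whose pattern was close to it were the B cell gene Cd79a (r = 0.995) and Fcho1 (0.994). Its ratio to 8 B cell markers was -0.92 ± 0.21 in SOD1-G93A Lepob/+ and -1.06 ± 0.22 in SOD1-G93A on the log2 scale (SD, n = 4 each), a difference of 0.14 (two-sided exact permutation p = 0.371, adjusted p = 0.869).

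Cxcr4 (ENSMUSG00000045382, chr1:128588199-128592293, minus strand), the receptor of CXCL12, is carried by lymphocytes and by many other cells. It was at 21.5, 19.6, 7.542 and 8.647 CPM in WT, at 5.169, 6.623, 51.44 and 5.229 CPM in Lepob/+, at 34.6, 49.78, 12.9 and 44.72 CPM in SOD1-G93A and at 3.963, 6.271, 10.63 and 9.128 CPM in SOD1-G93A Lepob/+. The highest library lay 13-fold above the lowest. Cxcr4 was the one member whose libraries did not overlap between SOD1-G93A Lepob/+ and SOD1-G93A, as was so, in the same direction, for 3.6% of all genes tested. Its closest genes were Igkv3-2 (r = 0.961), Fam129c (0.958) and Rdh12 (0.954).

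Ccr6 (ENSMUSG00000040899, chr17:8236043-8257141, plus strand) and Ccr9 (ENSMUSG00000029530, chr9:123678439-123784330, plus strand) had the lowest mean CPM per kilobase of exon of the 10 genes in each genotype. Ccr6 had 88, 73, 0 and 11 counts in WT, 0, 0, 177 and 0 in Lepob/+, 114, 247, 0 and 140 in SOD1-G93A and 0, 5, 0 and 0 in SOD1-G93A Lepob/+. A count of 0 allows up to 3 counts, or 0.0518 to 0.0999 CPM depending on the library. Ccr9 had 491, 327, 3 and 2 counts in WT, 4, 2, 432 and 2 in Lepob/+, 416, 567, 9 and 353 in SOD1-G93A and 25, 2, 5 and 0 in SOD1-G93A Lepob/+. The same 6 libraries were highest for both receptors. Ccr6 was most like Gm16069 (r = 0.995), Trav14d-2 and Trav14n-2 (0.988 each), and Ccr9 was most like Trbv12-1, Igsf23 (0.982 each) and Gal3st2b (0.981). The exons of Ccr9 share 1932 bases with those of AC165425.1 and 22 with those of Slc6a20a, both on the other strand. They also share 269 bases with those of Gm17200 on the same strand, so part of the Ccr9 counts cannot be assigned with certainty.

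The order of the genes among themselves also changed with the libraries. Per kilobase of exon, mean levels in SOD1-G93A were 251.9 CPM for Ccl21a, 40.61 for Ccl19, 37.49 for Ccr7, 36.13 for Cxcl13, 21.84 for Cxcl12 and 11.16 for Cxcr5. In SOD1-G93A Lepob/+ the same quantity was 31.93 for Cxcl12, 14.83 for Cxcl13, 0.9169 for Ccl21a, 0.6186 for Ccl19, 0.589 for Ccr7 and 0.1464 for Cxcr5. Cxcl12 thus ranked below the T cell zone ligands where the transgene was alone and above all other members where both mutations were present, while each library spread within SOD1-G93A remained as wide as given above.

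Markers of other cell types moved with these genes. In the 6 libraries the 8 B cell markers summed to 501.8 to 1516 CPM and 4 high endothelial venule markers (Glycam1, Chst4, Fut7 and Madcam1) to 210.8 to 624.1 CPM. In the other 10 libraries B cell markers summed to 5.093 to 20.81 CPM and those of high endothelial venules to 0.1814 to 2.142 CPM, with 1 to 3 of the 4 at 0 counts in each. The sum of 5 lymphatic endothelium markers did not follow this split and ran from 50.45 to 279.4 CPM over all libraries. Lyve1 and Pdpn had the highest group means of the 5, at 55.77 to 117.6 and 27.85 to 36.28 CPM, so the sum mainly reflects these 2 genes. Prox1 was at 0.337 to 0.5092 CPM in SOD1-G93A Lepob/+ and at 0.1554 to 2.462 CPM in SOD1-G93A. Its log2 fold change between these 2 genotypes was -1.45 (SE 0.74). Of the 5 markers, 3 had lower and 2 higher fitted levels in SOD1-G93A Lepob/+, with 0 at an unadjusted p under 0.05. In bulk tissue, fewer cells of a type and less RNA per cell cannot be told apart, and the part of tissue composition in the differences below was not tested. The later fit with lymphocyte markers as a covariate cannot test it, because these markers split the same 6 and 10 libraries.

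**Figure D3:**
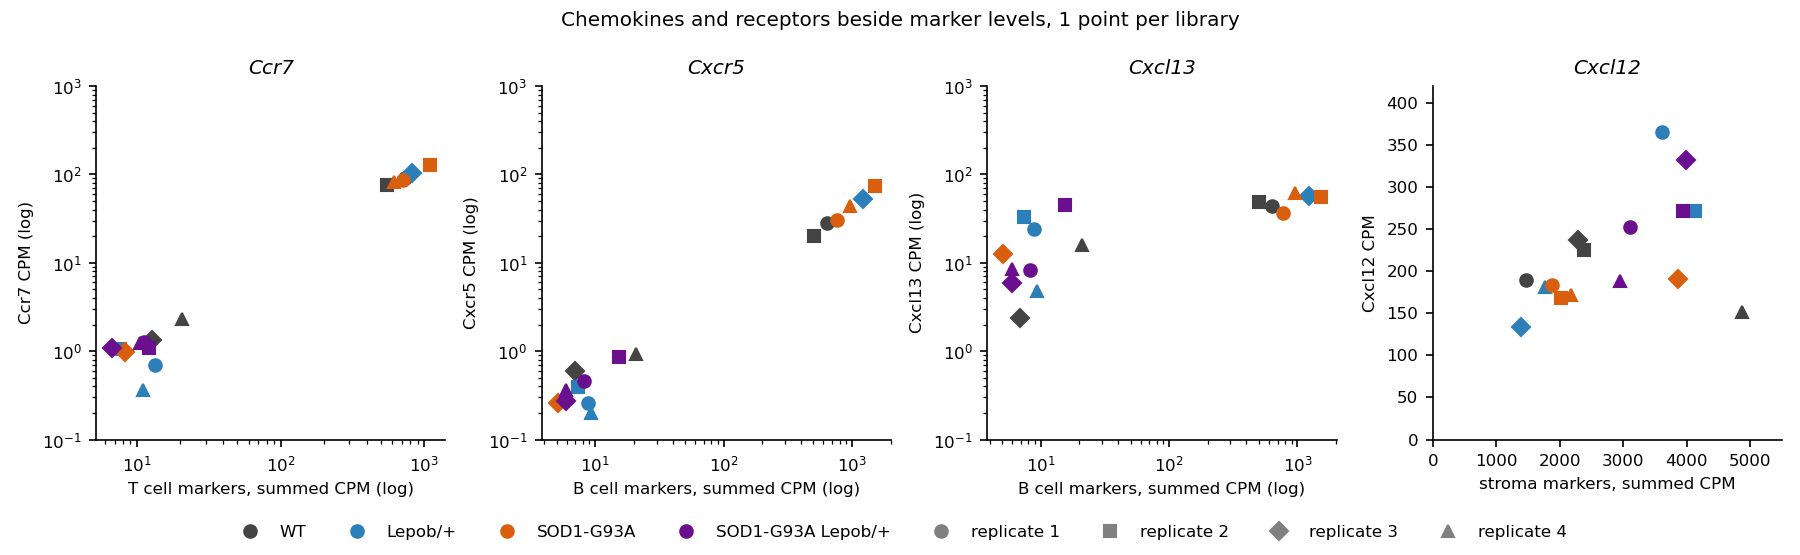
Levels in CPM of Ccr7 against 8 T cell markers, Cxcr5 and Cxcl13 against 8 B cell markers (log axes) and Cxcl12 against 6 stroma markers (linear axes), 1 point per library, colour for genotype and shape for replicate. Ccr7 and Cxcr5 rise with their markers into 6 libraries at the upper right, whereas Cxcl13 reaches 45.44 CPM at a B cell marker level of 15.34 CPM.

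When the ob allele was added to the transgene (SOD1-G93A Lepob/+ against SOD1-G93A), 9 of the 10 genes had lower fitted levels (49.9% of all genes did) and Cxcl12 a higher one. None passed edgeR's quasi-likelihood test over all genes (adjusted p of 0.261 to 0.479). The median log2 fold change of the 10 was -6.01, beside 0.00 for all 19736 genes. The fitted log2 fold change was -8.11 for Ccl21a (SE 2.91), -6.74 for Ccl21b (SE 2.18) and -6.03 for Ccl19 (SE 2.05). For the receptors it was -5.99 for Ccr7, -6.25 for Cxcr5, -6.39 for Ccr6 and -5.32 for Ccr9, with SE of 2.03 to 2.39. Cxcr4 had -2.24 (SE 0.74), Cxcl13 -1.28 (SE 0.91) and Cxcl12 0.55 (SE 0.26). At an unadjusted p under 0.05, 8 of the 10 were lower, all but Cxcl13 and Cxcl12, in edgeR's fit, where 12.3% of all genes were lower by the same rule and 0% passed the adjusted p in either direction. SOD1-G93A replicate 3 lay with the low libraries in every one of the 8 genes except Cxcr4, where it was lowest of its genotype but above SOD1-G93A Lepob/+.

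The tool decided the call. The study's methods name DESeq2. Fitted on the 8 libraries of these 2 genotypes, DESeq2 called 7 of the 10 lower, where it called 6.1% of all genes lower. These were Ccr7 (adjusted p = 1.99e-06), Ccl21b (6.39e-06), Ccl21a (6.52e-06), Cxcr5 (1.15e-05), Ccl19 (1.43e-05), Cxcr4 (3.26e-05) and Ccr9 (0.00518). DESeq2 on all 16 libraries called 6 lower, without Ccr9, against 2.49% of all genes, with a smallest adjusted p of 0.00663. When the mean level of the T and B cell markers entered edgeR's fit as a covariate, 7 of the 9 negative values turned positive. They ran from 0.067 for Ccr7 to 1.12 for Ccl21a, the median of the 10 was 0.33 and none passed. The markers split the libraries as most members do, so this fit does not test tissue composition. Without Lepob/+ replicate 4 and the library labelled SOD1-G93A Lepob/+ replicate 3, edgeR again called 0, with 7 lower at an unadjusted p under 0.05 (10.1% of all genes), and DESeq2 on the remaining libraries called 6 lower (1.78% of all genes). With the counts of the 5 Ccl21 genes summed into 1 gene, a choice made after seeing the data, the log2 fold change was -7.60 (edgeR adjusted p = 0.261).

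**Figure D4:**
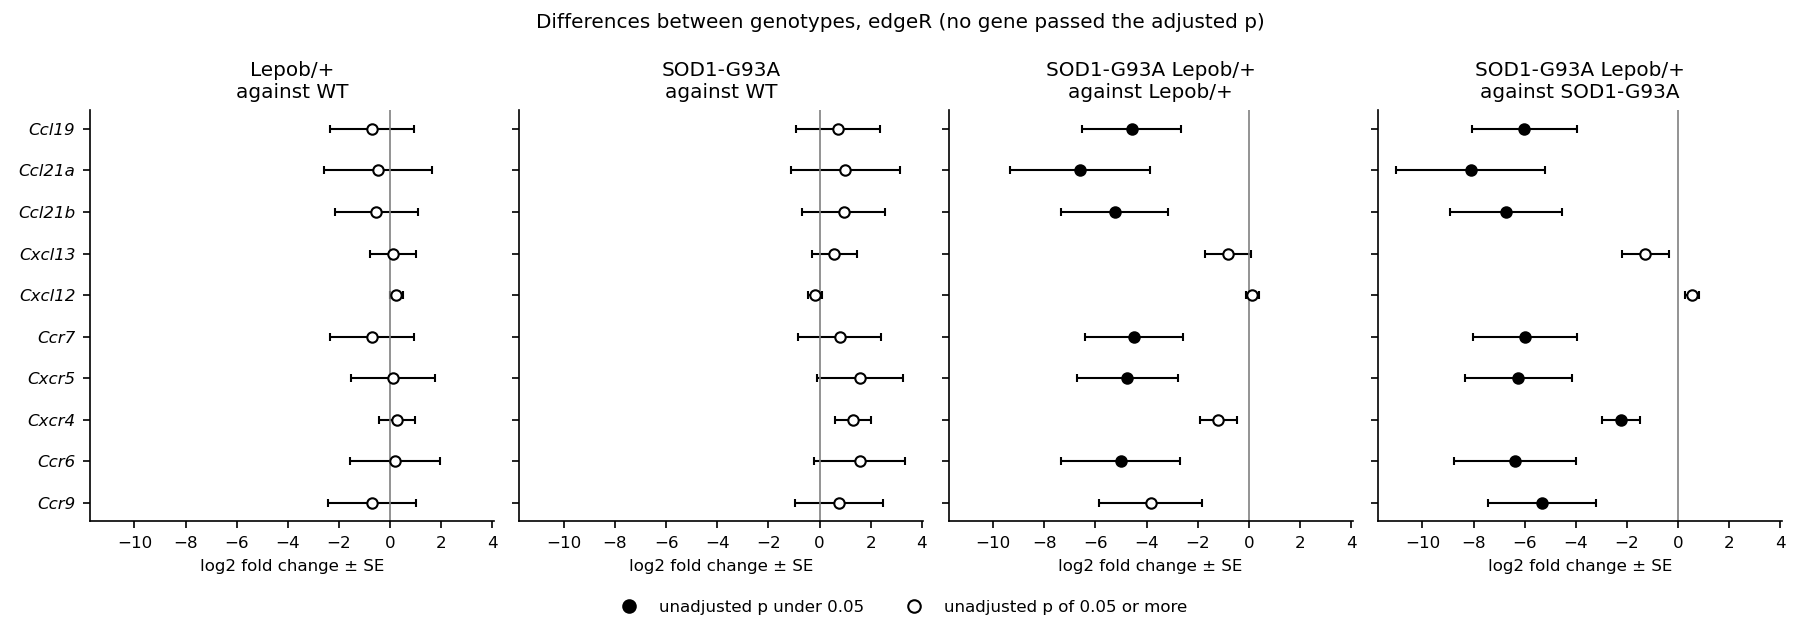
Fitted log2 fold changes with SE bars for the 10 genes in 4 comparisons of genotypes (4 libraries in each genotype), filled where the unadjusted p was under 0.05. In SOD1-G93A Lepob/+ against SOD1-G93A 8 values are filled and negative, from -8.11 to -2.24, in SOD1-G93A Lepob/+ against Lepob/+ 6 are, and in both comparisons with WT none is.

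Against Lepob/+, the same SOD1-G93A Lepob/+ libraries were also lower in 9 of 10 genes (57.9% of all genes), with a median log2 fold change of -4.54. Both comparisons use these 4 libraries, so they are not independent. None passed edgeR's test (adjusted p of 0.597 to 0.895), and 6 were lower at an unadjusted p under 0.05, where 6.28% of all genes were. They were Ccl21a (-6.62, SE 2.74), Ccl21b (-5.25, SE 2.08), Ccr6 (-5.01, SE 2.33), Cxcr5 (-4.76, SE 1.97), Ccl19 (-4.58, SE 1.93) and Ccr7 (-4.49, SE 1.90). Without Lepob/+ replicate 3 the median was 0.19, with 5 genes higher and 5 lower and none at an unadjusted p under 0.05. The count of 6 also fell to 0, 1, 1 and 2 without SOD1-G93A Lepob/+ replicate 1, 2, 3 and 4, with medians of -4.58 to -4.51. Without Lepob/+ replicate 4 and the library labelled SOD1-G93A Lepob/+ replicate 3 together, all 10 genes were lower with a median of -4.92, 4 of them at an unadjusted p under 0.05 (2.57% of all genes). DESeq2 on these 8 libraries gave an adjusted p for 2 of the 10 genes only, and called neither, with 0.146% of all genes called.

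Neither mutation alone gave a call against WT. In Lepob/+ the signs were split between 5 higher and 5 lower values (55.6% of all genes were higher), the median log2 fold change was -0.20 and no unadjusted p was under 0.05 (edgeR, adjusted p = 1 for all 10, with 4.37% of all genes at an unadjusted p under 0.05 in either direction). The values ran from -0.73 for Ccr9 (SE 1.72) to 0.26 for Cxcr4 (SE 0.71). Without Lepob/+ replicate 3, 9 of 10 were lower with a median of -5.36, and 8 were lower at an unadjusted p under 0.05 by edgeR (4.73% of all genes), with adjusted p of 0.356 or more. Without Lepob/+ replicate 4 and the library labelled SOD1-G93A Lepob/+ replicate 3 the median was 0.12, and without WT replicate 3 it was -0.60, with no unadjusted p under 0.05 in either fit. In SOD1-G93A 9 genes were higher than in WT (53% of all genes) and Cxcl12 lower, with a median of 0.87, no unadjusted p under 0.05 (2.56% of all genes) and adjusted p of 0.998 throughout. Without WT replicate 3 that median was 0.46. The largest values were 1.59 for Cxcr5 (SE 1.68), 1.56 for Ccr6 (SE 1.78) and 1.31 for Cxcr4 (SE 0.72). DESeq2 on the compared genotypes called 0 of the 10 in either comparison, where it called 0.0174% of all genes for Lepob/+ and 0.062% for SOD1-G93A.

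The interaction, which asks whether the ob allele acted differently with and without the transgene, was negative for 9 genes (57.5% of all genes) and positive for Cxcl12, with a median of -5.29. No gene passed edgeR's test (adjusted p of 0.564 to 0.756), and 5 had an unadjusted p under 0.05 and a lower value, where 5.82% of all genes did. These were Cxcr5 (-6.34, SE 2.57), Cxcr4 (-2.50, SE 1.02), Ccl21b (-6.19, SE 2.62), Ccl21a (-7.62, SE 3.38) and Ccr6 (-6.57, SE 2.94). Without Lepob/+ replicate 3 the median was -0.77 and none had an unadjusted p under 0.05. The count of 5 fell to 1 without SOD1-G93A Lepob/+ replicate 1 or SOD1-G93A replicate 2, and to 2 without SOD1-G93A Lepob/+ replicate 3 or WT replicate 3 or 4. It fell to 3 without SOD1-G93A Lepob/+ replicate 2, SOD1-G93A replicate 1 or 4 or WT replicate 2, and to 4 without SOD1-G93A Lepob/+ replicate 4. The count rose to 7 without Lepob/+ replicate 1, 2 or 4, SOD1-G93A replicate 3 or WT replicate 1. The median stayed between -6.01 and -4.88 in the fits that left out any library but Lepob/+ replicate 3. Without Lepob/+ replicate 4 and the library labelled SOD1-G93A Lepob/+ replicate 3 together, the median was -5.70 and 3 values were lower at an unadjusted p under 0.05 (4.14% of all genes).

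The signals that lie upstream of these chemokines in lymph nodes, and the genes that act after the receptors, were compared with them in SOD1-G93A Lepob/+ against SOD1-G93A. No gene of these lists passed edgeR's adjusted p. Of all genes tested, 49.9% had lower fitted levels and 12.3% were lower at an unadjusted p under 0.05. Of 12 lymphotoxin and lymphoid organiser genes, 10 had lower fitted levels, 8 of them at an unadjusted p under 0.05, and the median log2 fold change was -1.08. The other 2 had higher fitted levels, 1 of them at an unadjusted p under 0.05, where 4.19% of all genes were higher by the same rule. Ltb, the lymphotoxin subunit that tethers the ligand to the cell membrane, had -5.57 (SE 1.84), Il7r, the interleukin 7 receptor of T cells and their precursors, -5.66 (SE 1.83) and Tnfsf14, the cytokine LIGHT, -1.91 (SE 0.51). Of 14 genes for lymphocyte migration, 12 were lower, 10 of them at an unadjusted p under 0.05, with a median of -1.84. They included the integrin Itgal at -3.17 (SE 1.00), the actin regulator Coro1a at -2.67 (SE 0.85) and the sphingosine phosphate receptor S1pr4 at -2.90 (SE 0.94).

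Other chemokines were less uniform. Of 17 other homeostatic chemokine and receptor genes that passed the filter, 11 were lower against 6 higher (median -0.65), and 6 were lower and 1 higher at an unadjusted p under 0.05, which 4.19% of all genes were in the higher direction. Cxcr6 (-4.04, SE 1.27) and Ccr4 (-6.33, SE 2.17), both receptors of T cell subsets, were lower, while Cxcl14, a chemokine of epithelium and fat, was higher (0.67, SE 0.23, edgeR adjusted p = 0.261). Of 20 inflammatory chemokine and receptor genes, the split was 10 higher to 10 lower (median 0.03), and 5 were lower at an unadjusted p under 0.05. Those named by the smallest p were Cxcr2, the neutrophil receptor (-9.65, SE 2.71), the T cell chemokine Ccl5 (-4.40, SE 1.55) and the interferon-induced Cxcl10 (-2.03, SE 0.72). Cxcr2 had 0 counts in every SOD1-G93A Lepob/+ library and a mean of 2.327 CPM in SOD1-G93A, so the size of its fold change is uncertain.

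Markers of cell types other than lymphocytes moved in both directions in the same comparison. All 5 mature dendritic cell markers were lower (4 at an unadjusted p under 0.05), among them Lamp3 (-8.10, SE 2.50) and Ccl22 (-4.62, SE 1.70). Lamp3 had 0 counts in every SOD1-G93A Lepob/+ library and a mean of 0.796 CPM in SOD1-G93A, so the size of its fold change is uncertain. All 5 macrophage markers (median 0.51), all 6 adipocyte markers (0.38) and all 6 stroma markers (0.44) had higher fitted levels, with 1 of these 17 genes, Cidec of the lipid droplet (0.77, SE 0.31), at an unadjusted p under 0.05. Of the 5 skeletal muscle markers 4 were lower and 1 higher (median -0.97), with none at an unadjusted p under 0.05. Of the 5 plasmacytoid dendritic cell markers 3 were lower, all at an unadjusted p under 0.05 (12.3% of all genes), and 2 higher (median -1.26). Of the 5 epithelium markers 3 were higher, 2 of them at an unadjusted p under 0.05 (4.19% of all genes), and 2 lower (median 0.69).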

How the data were processed

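RNA-seq was done on iWAT of 16 mice, 4 per genotype, with 1 library each. The authors sequenced paired-end reads of 100 bp. The paper names TruSeq Stranded mRNA libraries and the labels a NEBNext Ultra kit. The authors removed low-quality and short reads with fastp, used HISAT2 2.1.0 to align the rest to mm10, and took counts of uniquely mapped reads from featureCounts 2.0.2, per the labels and the paper's methods. The annotation release and strand setting are not given in the sources used here. The deposited values are raw counts made by the authors, 1 column per library, with no normalization. Columns of the authors' own comparisons were not present in the table used.

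Counts were fitted in R 4.3.3 with edgeR 4.0.16 in 1 fit of all 16 libraries (filterByExpr with min.count 10 and min.total.count 15, TMM, robust quasi-likelihood F test), and p-values were adjusted by Benjamini-Hochberg over 19736 genes within each comparison, at a threshold of 0.05. Log2 CPM used a prior count of 1. Of 54752 IDs, 54723 were paired with a symbol by the GENCODE M21 annotation of GRCm38, as were 144 of 151 genes of the 17 lists. The members and lists were chosen with earlier results of these data known. Named genes are the 10 members, up to 3 genes per other list with the smallest p in SOD1-G93A Lepob/+ against SOD1-G93A, and the 3 genes outside the members most correlated with each, of which 1 is not reported here. Motifs were chosen after the promoters had been seen. Total counts ran from 36.8 to 61.9 M per library, and intervals and limits cover counting error only. The labels do not say that replicates came from separate litters, so p-values measure the spread between these libraries.

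Alternatives were DESeq2 size factors, no filter, TMM computed without the genes of the lymphoid lists, a replicate block, edgeR on the compared genotypes, DESeq2 1.42.0 (fitted on every library, or on those of the genotypes compared), T and B cell markers as a covariate, a prior count of 5 for ratios, and leaving out each library, or Lepob/+ replicate 4 and SOD1-G93A Lepob/+ replicate 3 together. Among the 24 same-numbered pairs, deviations from the genotype means correlated above 0.1 in 8 and below -0.1 in 9, so the numbers were not taken to pair the mice. No library was a copy of another (smallest chi-square per gene between replicates 53.85).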

Additional observations from a re-analysis of the deposited data

Results flagged for a closer look

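In Lepob/+, replicate 3 stood far above the other 3 libraries by Dixon's test for 8 of the 10 genes, at 50.01 CPM for Ccl19, 307 for Ccl21a, 12.87 for Ccl21b, 102.7 for Ccr7, 52.2 for Cxcr5, 51.44 for Cxcr4, 4.299 for Ccr6 and 10.49 for Ccr9. In SOD1-G93A Lepob/+, replicate 2 stood above the others at 45.44 CPM for Cxcl13 and at 0.1249 CPM, or 5 counts, for Ccr6. Chance flags about 1 in 20 groups of normally distributed values, and 10 of the 40 groups tested here were flagged. The test was run on CPM, which is skewed here and includes 0 counts, so that rate does not apply. Where all other libraries of a genotype are at 0 counts, as for Ccr6 in both genotypes, any higher value is flagged. The 8 genes share the library, so these are not separate events.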

How the results depend on the processing

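No alternative with edgeR called any of the 10 genes in any comparison, and leaving out each library in turn gave 0 to 0. In SOD1-G93A Lepob/+ against SOD1-G93A, DESeq2 called 7 on the compared genotypes, 6 on all libraries and 6 without Lepob/+ replicate 4 and SOD1-G93A Lepob/+ replicate 3. Over all genes edgeR called 0 in each comparison. By DESeq2 on all libraries, on the compared genotypes and without those 2 libraries, the counts were 3, 5 and 14 in Lepob/+ against WT, 4, 14 and 5 in SOD1-G93A against WT, 549, 1750 and 443 in SOD1-G93A Lepob/+ against SOD1-G93A, and 61, 31 and 43 in SOD1-G93A Lepob/+ against Lepob/+. For the interaction, which has no fit on compared genotypes, they were 40 and 43. Without both libraries edgeR called 2 genes in each comparison of SOD1-G93A Lepob/+, and edgeR on the compared genotypes called 2 against SOD1-G93A. Leaving out 1 library gave 0 to 0 genes in Lepob/+ against WT, 0 to 1 in SOD1-G93A against WT, 0 to 3 and 0 to 2 in SOD1-G93A Lepob/+ against SOD1-G93A and against Lepob/+, and 0 to 2 for the interaction. The cause of these changes was not tested.

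With the replicate block, Cxcr5, Cxcr4 and Ccr6 in Lepob/+ against WT turned to -1.12, -0.23 and -1.12 (log2), the block called 0 of the 10 genes in each comparison, and it changed no call. It took the genes lower at an unadjusted p under 0.05 from 6 to 0 in SOD1-G93A Lepob/+ against Lepob/+ and from 5 to 0 for the interaction. With the lymphocyte covariate, SOD1-G93A Lepob/+ against SOD1-G93A turned to 0.51 for Ccl19, 1.12 for Ccl21a, 0.44 for Cxcl13, 0.067 for Ccr7, 0.11 for Cxcr5, 0.36 for Ccr6 and 0.75 for Ccr9. Without the same 2 libraries, Cxcl12 in SOD1-G93A Lepob/+ against Lepob/+ turned to -0.10 by edgeR and -0.12 by DESeq2. Leaving out 1 library changed the sign of these uncalled values. In Lepob/+ against WT they ran from -5.28 to 0.061 for Ccl19, -6.45 to 0.16 for Ccl21a, -4.71 to 0.085 for Ccl21b, -0.44 to 0.51 for Cxcl13, -0.038 to 0.43 for Cxcl12, -5.43 to 0.86 for Cxcr5, -1.35 to 0.56 for Cxcr4, -8.37 to 0.70 for Ccr6 and -6.03 to 0.060 for Ccr9. In SOD1-G93A Lepob/+ against Lepob/+ they ran from -0.056 to 0.42 for Cxcl12, -4.91 to 0.71 for Ccr7, -5.18 to 0.77 for Cxcr5, -1.50 to 0.41 for Cxcr4, -8.54 to 3.54 for Ccr6 and -5.49 to 1.46 for Ccr9. For the interaction they ran from -10.11 to 1.99 for Ccr6 and -6.24 to 0.72 for Ccr9. Leaving out Lepob/+ replicate 3 turned the sign in 12 of these 17 values. The 16 ratio comparisons kept their direction and their side of the threshold at a prior count of 5. Depth limits Ccr6, which had 0 counts in 8 libraries, each allowing up to 3.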

Other observations

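Among the 10 libraries low in Ccl19 (0.1899 to 0.6199 CPM), Ccl21a ran from 0.05289 to 3.097 CPM. Lepob/+ replicate 4 and SOD1-G93A Lepob/+ replicate 4 had 93 and 66 counts of Ccl21a (3.097 and 1.854 CPM), with Ccl19 at 0.4996 and 0.4494 CPM and Ccr7 at 0.3664 and 1.236 CPM. In Lepob/+ replicate 4 the other Ccl21 genes were also at their highest counts of the 10 libraries, at 12 for Ccl21b, 58 for Gm13304, 40 for Gm10591 and 10 for Gm21541. Their log2 ratio of Ccl21a to Ccl19 was 2.58 and 1.99, near the 2.26 to 2.69 of the 6 libraries high in both genes, whereas WT replicate 4 and SOD1-G93A Lepob/+ replicate 2 were at -2.63 and -1.79. These values were singled out after they had been seen. On 2 to 93 counts per library the ratio is imprecise, and no difference between genotypes passed the test (16 two-sided exact permutation tests, adjusted p of 0.869 or more).

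The 5 markers of lymphatic endothelium, a known source of CCL21, summed to 98.42 and 188.9 CPM in those 2 libraries. They summed to 166.9 and 162.3 CPM in WT replicate 4 and SOD1-G93A Lepob/+ replicate 2, where Ccl21a was at 0.05289 and 0.1499 CPM. In SOD1-G93A replicate 3, with Ccl21a at 0.1036 CPM, the sum was 117.8 CPM. Lyve1 and Pdpn had the highest group means of the 5, so the sum mainly reflects these 2 genes.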
